A study of Mus musculus with 2 samples.

Results

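The genes described here encode 36 proteins that work between a Toll-like receptor (TLR) and the kinases it switches on. They were taken by gene symbol from a fixed list, and all 36 were found among the 55536 annotated genes of the deposited tables. The series held 1 group of 2 RNA-seq libraries of polyadenylated RNA, biological replicates 1 and 2. Both came from macrophages grown from C57BL/6J mouse bone marrow and exposed for 30 min to a ligand at 100 ng/ml. One label names the ligand lipid A, the part of lipopolysaccharide that TLR4 binds, and another names it lipoprotein A and classes it as a protein. Both libraries carry the same donor record with separate biosample records, and sex and age were not collected. There was no untreated sample, so the values are levels during exposure and show no induction, and a difference between the libraries is the spread within the group. No p-value can be given for a condition.

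TLRs signal through adaptor proteins that dock on the receptor tail. Myd88 gathers the IRAK kinases, these engage the ubiquitin ligase Traf6, and the ubiquitin chains recruit the TAK1 and IKK kinase complexes that release NF-kB. A second branch, through Ticam1, Traf3 and the kinases Tbk1 and Ikbke, leads to interferon genes. Macrophages use both branches when they meet bacteria, and some of the genes, such as Cd14, Irak2 and Ikbke, are known to be targets of the pathway as well as parts of it.

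Of the 36 genes, 33 were detected, meaning at 1 TPM or more in both libraries, where TPM is a relative abundance corrected for transcript length. Among all 21951 protein-coding genes the share detected was 45.5%. Of the members, 27 reached 10 TPM and 5 reached 100 TPM in both libraries, and Sarm1 alone was below 1 TPM in both. Of the 21951 protein-coding genes, 6247 reached 10 TPM, 1051 reached 100 TPM and 11537 were below 1 TPM in both. The median member level was 25.5 TPM over the mean of both libraries, with 24.02 TPM in replicate 1 and 28.23 TPM in replicate 2. The median of the 9977 detected protein-coding genes was 17.5 TPM. Replicate 1 held 37784941 expected counts and replicate 2 held 51904470, of which the members took 0.378% and 0.433%. Detected members had between 78 and 38784 counts in a library. In bulk RNA, fewer cells of a type and less RNA per cell cannot be told apart. Pairs of values below are for replicate 1 and then replicate 2, means are ± SD with n = 2, and coordinates are on mm10.

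Both libraries held all 8 macrophage markers examined at 10 TPM or more, among them Lyz2, the lysozyme gene, with 15907 TPM in replicate 1 and 22127 TPM in replicate 2. All 5 hepatocyte markers had 0 counts, where 0 allows up to 3 counts, or 0.0794 CPM in replicate 1 and 0.0578 CPM in replicate 2. None of 4 T cell, 4 fibroblast and 4 dendritic cell markers was detected. Of 5 B cell markers 4 were below 1 TPM in both, and Cd79b had 3.88 and 1.43 TPM. Of 6 neutrophil markers 2 were detected, S100a8 with 124 and 18.1 TPM and S100a9 with 183 and 37.1 TPM. Summed, neutrophil markers had 309 TPM in replicate 1 and 55.6 TPM in replicate 2, while Ly6g, the defining one, was at 1 and 0 counts. The part of this difference in the members' values was not tested.

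**Figure D1:**
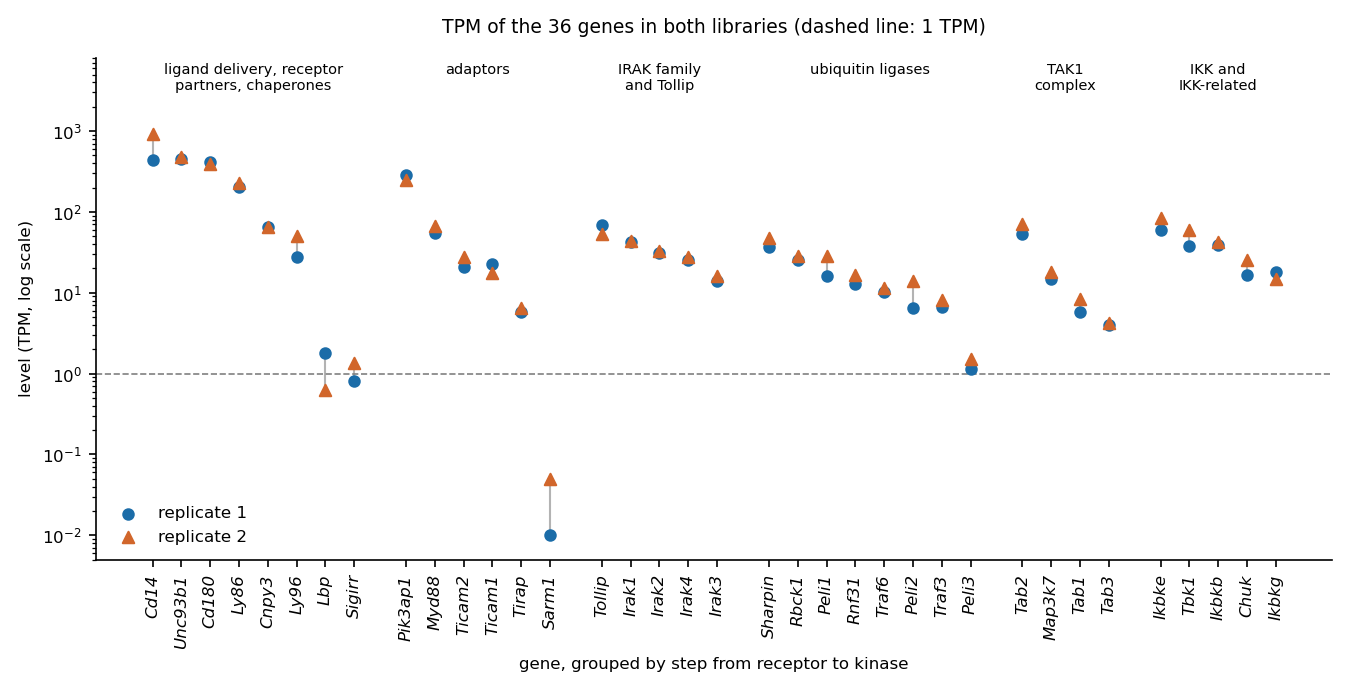
Level of each of the 36 genes in TPM on a log axis, grouped by step from receptor to kinase and ordered within a step by mean level. Circles are replicate 1, triangles replicate 2, a grey line joins them, and the dashed line marks 1 TPM. The first step runs from Sigirr and Lbp at the dashed line to Cd14 at 440 and 928 TPM, and Sarm1, an adaptor gene, lies far below the line.

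The partners of the receptors at the cell surface and in the endosome were the most abundant step. Their median was 140 TPM over 8 genes, against 22.3 TPM for the 6 adaptors, 32.0 TPM for the IRAK family with Tollip, 12.8 TPM for the 8 ubiquitin ligase genes, 11.8 TPM for the TAK1 complex and 40.3 TPM for the IKK and IKK-related genes. Cd14 (ENSMUSG00000051439.7, chromosome 18, 36725067 to 36726798), whose protein hands lipopolysaccharide to the receptor, had 440 TPM in replicate 1 and 928 TPM in replicate 2, from 13446 and 38784 counts. It had the highest mean of all members, 684 ± 345 TPM, but in replicate 1 it lay below Unc93b1. Ly96 (chromosome 1, 16688051 to 16709611), which encodes MD-2, the lipid-binding partner of TLR4, had 27.8 and 50.2 TPM, from 256 and 613 counts. Cd14 was thus 15.8 times as abundant as Ly96 in replicate 1 and 18.5 times in replicate 2, and Ly96 stood at 0.568 and 0.834 of Tlr4, which had 48.9 and 60.2 TPM.

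Cd180 (chromosome 13, 102693558 to 102739629) encodes RP105, a TLR4-like receptor without a signalling tail, and Ly86 encodes MD-1, its partner. Cd180 had 415 TPM in replicate 1 and 386 TPM in replicate 2, and Ly86 had 202 and 230 TPM. Both pairs lay within a narrow range, with SDs of 5.13% and 9.13% of the mean. B cells are known to express both genes, and their markers are given above. Unc93b1 (chromosome 19, 3935186 to 3949340), which escorts the nucleic acid-sensing TLRs to the endosome, had 453 and 482 TPM. Cnpy3, which encodes a folding factor for TLRs in the endoplasmic reticulum, had 65.6 and 64.2 TPM, the second smallest relative spread of any member after Irak1.

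The remaining 2 genes of this step were near the limit of detection. Lbp encodes the serum protein, made mainly by the liver, that extracts lipopolysaccharide for Cd14. It had 1.79 TPM from 101 counts in replicate 1 (exact 95% Poisson interval 82.3 to 123 counts) and 0.630 TPM from 50 counts in replicate 2 (37.1 to 65.9). The intervals, which cover counting error only, did not overlap even though replicate 2 was the deeper library. Sigirr, a receptor that restrains TLR and interleukin 1 signals, had 0.810 TPM from 26 counts in replicate 1 (17.0 to 38.1) and 1.35 TPM from 34 counts in replicate 2 (23.5 to 47.5). In the second deposited quantification it had 3.31 and 2.88 TPM, so that neither its level nor the direction between the libraries held.

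Among the adaptors, Pik3ap1 and Myd88 led. Pik3ap1 (chromosome 19, 41272377 to 41385102), which encodes BCAP, a link from TLRs to phosphoinositide 3-kinase, had 287 TPM in replicate 1 and 248 TPM in replicate 2, a mean of 268 ± 27.5 TPM. Myd88 (chromosome 9, 119335934 to 119341411), the adaptor of nearly all TLRs, had 54.5 and 67.3 TPM. Tirap, the bridging adaptor that brings Myd88 to TLR4 and TLR2, was much lower, with 5.86 and 6.39 TPM. The ratio of Myd88 to Tirap was 9.30 in replicate 1 and 10.5 in replicate 2.

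The adaptors of the interferon branch lay between them. Ticam1, which encodes TRIF, had 23.0 TPM in replicate 1 and 17.7 TPM in replicate 2, and Ticam2, which encodes the bridging adaptor TRAM, had 20.6 and 27.9 TPM. Their ranges overlapped and their order changed, since Ticam2 stood at 0.897 of Ticam1 in replicate 1 and 1.58 of it in replicate 2. Sarm1, a TIR-domain NAD-cleaving enzyme best known from neurons, had 1 count in replicate 1 (0.0253 to 5.57) and 5 counts in replicate 2 (1.62 to 11.7), or 0.0100 and 0.0500 TPM. It was the lowest member, and so few counts give no usable level.

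In the IRAK family the order by level was the same in both libraries. Tollip, which binds IRAK1 and dampens its activation, had 69.3 TPM in replicate 1 and 53.7 TPM in replicate 2. Irak1 (chromosome X, 74013914 to 74023918) had 42.5 and 43.1 TPM, and Irak2 had 30.9 and 33.2 TPM. Irak4, the kinase that acts first in the complex, had 25.5 and 28.0 TPM, and Irak3, which encodes the inhibitory pseudokinase IRAK-M, had 14.2 and 16.2 TPM. All 4 neighbouring pairs in this order were separated, meaning that both values of one lay above both values of the next. In the values above, the place of Irak2 above Irak4 rests on a fragment. The transcript Irak2-207, annotated retained_intron, took 8.43 and 7.17 TPM from only 65.5 and 73.0 reads, because its effective length is 311 and 287 bases. With transcripts annotated protein_coding only, Irak2 stood at 0.869 of Irak4 in replicate 1 and 0.977 in replicate 2. In the second quantification Irak2 stood at 1.15 and 1.31 of Irak4 over all transcripts, with 6.54 and 5.13 TPM on Irak2-207. Over protein_coding transcripts there, Irak2 had 17.6 and 20.9 TPM and Irak4 had 22.2 and 23.9 TPM.

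The IRAK genes also differed in how many protein-coding forms they used. These shares were assigned by the authors' quantification, and forms that differ by a few bases are told apart by few reads. Irak1-206 took 44.2% of the Irak1 TPM in replicate 1 and 53.6% in replicate 2, and Irak1-204 took 32.8% and 21.1%. In the second quantification Irak1-206 had 35.4% and 45.4%, and Irak1-204 had 34.1% and 21.4%, nearly equal in replicate 1. The coding sequences of these forms differ by 3 bases, so 1 codon. Another form, Irak1-201, keeps 117 further bases and took 4.50% and 2.69%, but 11.5% and 10.1% in the second quantification. Irak2-201 took 62.6% and 59.0% of the Irak2 TPM, and Irak2-202, which lacks a coding stretch of 144 bases or 48 codons, took 9.11% and 13.9%, but 4.69% and 4.11% in the second quantification, lower and with the libraries in the other order. For Irak3, the form Irak3-201 took 51.5% and 73.9% and Irak3-205 took 46.5% and 23.5%, but in the second quantification Irak3-205 had 24.6% in replicate 1 and 0.111% in replicate 2. The shares of the Irak1 forms, Irak2-202 and the Irak3 forms are therefore not settled by these tables, though Irak1-206 stayed ahead of Irak1-204.

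The coding stretches in which the Irak1 and Irak2 forms differ are shown to identify the forms. The transcripts also differ outside them, with effective lengths in replicate 1 of 3571 bases for Irak1-206, 3561 for Irak1-204 and 2626 for Irak1-201, and of 2932 for Irak2-201 and 2710 for Irak2-202, so the shares rest on more than the bases shown. Capitals mark the coding bases present only in the longer form, with 12 bases of neighbouring coding sequence on each side in lower case, all 5′ to 3′ on the gene's strand from the GENCODE M21 transcripts.
Irak1-206 not Irak1-204, chrX:74022662-74022664, minus strand: tcctccaccaagCAGtcaagcccagag
Irak1-201 not Irak1-206, chrX:74017901-74018017, minus strand: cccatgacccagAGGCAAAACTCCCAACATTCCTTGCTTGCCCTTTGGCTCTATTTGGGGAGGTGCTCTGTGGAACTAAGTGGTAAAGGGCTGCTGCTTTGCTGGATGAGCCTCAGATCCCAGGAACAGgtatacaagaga
Irak2-201 not Irak2-202, chr6:113665703-113665846, plus strand: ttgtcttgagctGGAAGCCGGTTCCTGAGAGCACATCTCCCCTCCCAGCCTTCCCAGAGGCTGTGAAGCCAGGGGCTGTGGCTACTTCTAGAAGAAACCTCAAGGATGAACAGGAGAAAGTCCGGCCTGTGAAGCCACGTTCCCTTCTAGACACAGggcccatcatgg

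Among the ubiquitin ligases, Traf6 and Traf3, which carry the 2 branches, were not the abundant ones. Traf6 (chromosome 2, 101678429 to 101701669), which builds lysine-63 chains, had 10.3 TPM in replicate 1 and 11.3 TPM in replicate 2. Traf3 (chromosome 12, 111166370 to 111267153), which acts toward Tbk1, had 6.75 and 8.16 TPM. Traf6 was 1.53 and 1.38 times Traf3, and 1.19 and 1.12 times in the second quantification.

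The linear ubiquitin complex consists of the catalytic subunit HOIP, encoded by Rnf31, and the partners HOIL-1 and SHARPIN, encoded by Rbck1 and Sharpin. Rnf31 had 12.9 TPM in replicate 1 and 16.8 TPM in replicate 2, Rbck1 had 25.1 and 28.5 TPM, and Sharpin had 37.2 and 47.1 TPM. Rbck1 exceeded Rnf31 by 1.94 and 1.70 times, and between 1.62 and 2.03 times in both other measures taken. The Sharpin level rests on a short transcript: Sharpin-211, annotated processed_transcript with an effective length of 143 and 126 bases, took 18.3 and 19.5 TPM from 65.5 and 87.3 of the gene's 713 and 1373 counts. The second quantification gave Sharpin 19.0 and 25.6 TPM. The ratio of Sharpin to Rnf31 was 2.87 and 2.81 over all transcripts but 1.28 and 1.31 over protein_coding ones, and Sharpin to Rbck1 was 1.48 and 1.65 against 0.648 and 0.809.

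The Pellino ligases, which ubiquitinate IRAK1, spanned a wide range. Peli1 (chromosome 11, 21091291 to 21150323) had 16.0 TPM in replicate 1 and 28.7 TPM in replicate 2. Peli2 (chromosome 14, 48120823 to 48281575) had 6.44 and 13.9 TPM, and Peli3 had 1.14 and 1.5 TPM from 78 and 179 counts. All 3 had the larger value in replicate 2, as did 6733 of 11100 genes, but Peli3 by under 1.5-fold, and the order Peli1, Peli2, Peli3 was the same in both libraries, with Peli1 at 2.49 and 2.08 times Peli2.

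The subunits of the TAK1 complex were far from equal. Tab2, which encodes an adaptor that reads lysine-63 ubiquitin chains, had 53.7 TPM in replicate 1 and 71.7 TPM in replicate 2. Tab3, which encodes a related chain reader, had 4.03 and 4.26 TPM, and Tab1, the activator of the kinase, had 5.86 and 8.44 TPM. Map3k7 (chromosome 4, 31964097 to 32023467), which encodes the kinase TAK1 itself, had 14.9 and 18.2 TPM. Tab2 was 13.3 times Tab3 in replicate 1 and 16.8 times in replicate 2, and 9.16 and 8.50 times Tab1. Of the Tab3 TPM in replicate 1, 37.0% came from 5 reads on the short transcript Tab3-203, so the ratio to Tab3 rests partly on the length correction. In TPM of the second quantification, Tab2 was 15.1 and 17.9 times Tab3. That ratio has the same limit, since Tab3-203 again took 30.1% of the Tab3 TPM in replicate 1 from 5 reads.

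Map3k7 was made in 2 protein-coding forms of like abundance. Map3k7-202 took 55.3% of the TPM in replicate 1 and 54.0% in replicate 2, and Map3k7-201 took 42.5% and 38.5%. In the second quantification Map3k7-201 was slightly ahead, with 49.5% and 40.5% against 45.2% and 40.1% for Map3k7-202, so which form leads was not settled. The coding sequence of Map3k7-201 is 1818 bases long and that of Map3k7-202 is 1737, and the difference is 81 bases, or 27 codons, that keep the reading frame. The stretch is shown with its extra bases in capitals and 12 flanking coding bases on each side.
Map3k7-201 not Map3k7-202, chr4:31994874-31994954, plus strand: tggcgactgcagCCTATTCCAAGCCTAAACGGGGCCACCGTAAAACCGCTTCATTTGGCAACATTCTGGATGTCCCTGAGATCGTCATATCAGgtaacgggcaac

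At the end of the chain, Ikbke of the interferon branch stood above the kinase genes of the NF-kB branch in both libraries. Ikbke (chromosome 1, 131254343 to 131279606), which encodes IKK-epsilon, had 60.3 TPM in replicate 1 and 83.4 TPM in replicate 2, and its relative Tbk1 (chromosome 10, 121546455 to 121586787) had 38.0 and 59.7 TPM. Ikbkb, which encodes IKK-beta, the main kinase of the NF-kB inhibitor, had 38.6 and 42.0 TPM, and its range overlapped that of Tbk1. Chuk, which encodes IKK-alpha, had 16.7 and 25.4 TPM, and Ikbkg, which encodes the scaffold NEMO, had 18.2 and 14.96 TPM. Ikbke was 1.59 times Tbk1 in replicate 1 and 1.40 times in replicate 2. Ikbkb was 2.31 and 1.65 times Chuk, while Chuk stood at 0.918 and 1.70 of Ikbkg, so that order changed between the libraries. The Ikbkb level includes 9.41 and 8.77 TPM from 79.5 and 97.7 reads on the short processed_transcript Ikbkb-213. Over protein_coding transcripts only, Ikbkb had 28.1 and 29.3 TPM and Tbk1 36.5 and 53.0 TPM, so their ranges no longer overlapped. Ikbkb was then 1.73 times Chuk in replicate 1 and 1.29 times in replicate 2.

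Chuk and Ikbkg were also divided among forms. Chuk-201 took 63.2% of the Chuk TPM in replicate 1 and 72.7% in replicate 2, and Chuk-202 took 33.8% and 16.8%. Chuk-201 has 17 coding bases that Chuk-202 lacks, a number that is not a multiple of 3, and the annotated coding lengths are 2235 and 2157 bases. Ikbkg has 18 annotated transcripts, of which Ikbkg-202 led with 48.6% and 44.1%. The Chuk stretch, in capitals with 12 flanking bases on each side, is
Chuk-201 not Chuk-202, chr19:44077246-44077262, minus strand: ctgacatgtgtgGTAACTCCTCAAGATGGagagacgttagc

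Over the 33 detected members, 32 had a protein_coding leading transcript and the same leading transcript in both libraries, with Sharpin the exception in both counts. In 31 the second quantification gave the same one, the exceptions being Sharpin and Map3k7. The leading transcript took over 50% of the TPM in both libraries in 30 members and over 90% in 12. These counts were not taken over all detected genes, so they are not read as a trait of the members. The plot of alternative transcripts shows, for 7 genes, the 2 transcripts with the most reads in the authors' transcript table, summed over both libraries, beside their shares in the second quantification.

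**Figure D2:**
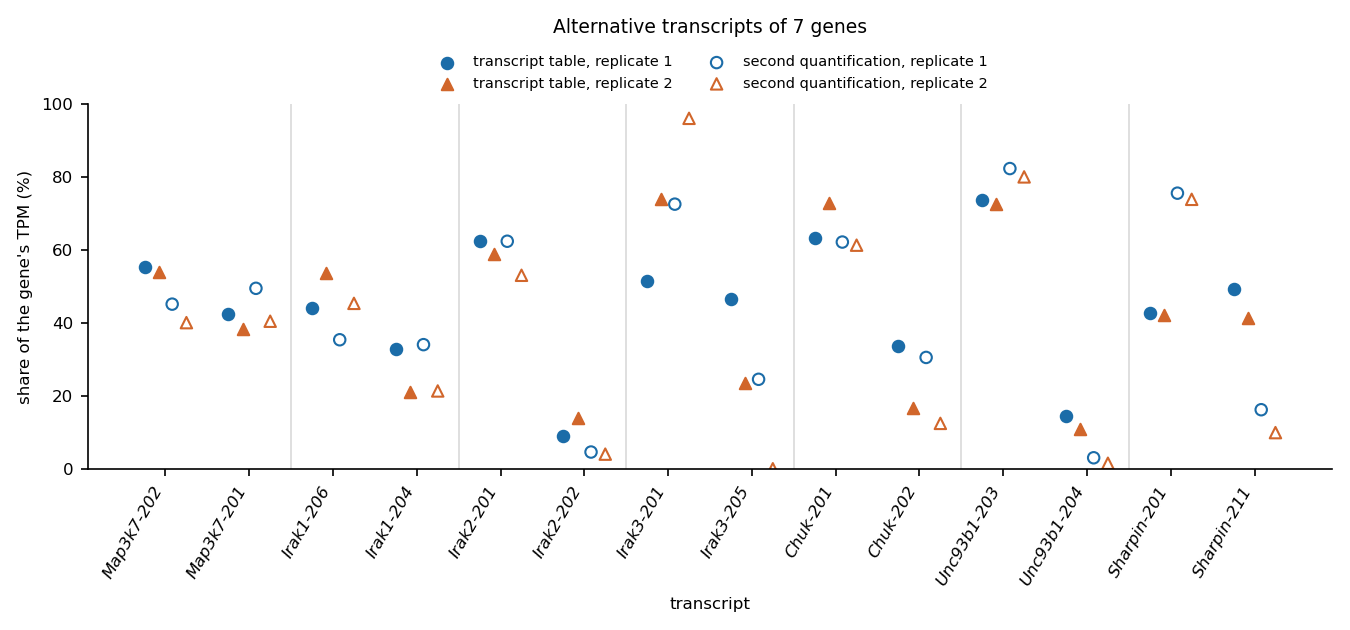
Share of the gene's TPM, in percent, taken by 2 transcripts of each of 7 genes. Filled symbols are the authors' transcript table and open ones the second quantification, with circles for replicate 1 and triangles for replicate 2. The Map3k7 forms change order between the quantifications, Irak3-205 ranges from 46.5% to 0.111% and Sharpin-211 is near 49.2% and 41.5% in one quantification and far lower in the other.

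Ranked by mean level, 9 of the 35 neighbouring pairs of members were separated and 26 overlapped. From the top, Cd14 and Unc93b1 overlapped, while Unc93b1, Cd180, Pik3ap1, Ly86 and then Ikbke each lay below the one before in both libraries. From Ikbke through Cnpy3, Tab2, Tollip, Myd88, Tbk1 and Irak1, each gene overlapped the next. The SD was below 20% of the mean in 23 of the 33 detected members. No share over all genes is given beside it, so nothing about the members is read from that count.

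Between the libraries, 5 of 35 members with a mean of 1 TPM or more were over 1.5-fold higher in replicate 2 and 1 was lower, with 1 TPM added to each value. Among all 11100 genes at that level, 13.1% were higher and 3.97% lower, so the members' counts lie near the background and are not a result about them. On that log2 scale, replicate 2 over replicate 1, Cd14 was at 1.08, Peli2 at 1.00, Ly96 at 0.83, Peli1 at 0.80 and Tbk1 at 0.64, while Lbp was at -0.78. Chuk, at 0.58, lay just inside the limit. Of the 35, 28 had a ratio above 0, as did 6733 of all 11100 genes. The median ratio was 0.19 over the members and 0.09 over all 11100 genes. With TMM-scaled counts the median was -0.01 over all genes and 0.11 over the members, and Tbk1 was no longer past the limit. With transcripts annotated protein_coding only, a measure added after the data were seen, Tbk1 was also inside it.

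**Figure D3:**
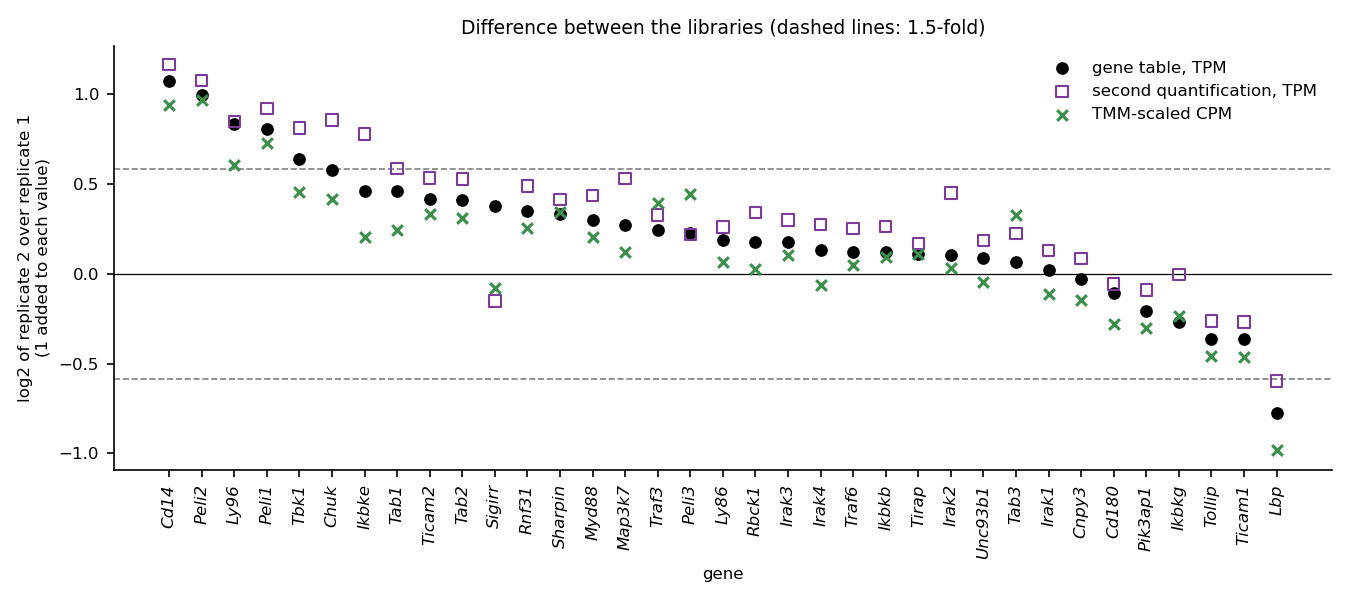
Log2 ratio of replicate 2 over replicate 1 for the 35 members with a mean of 1 TPM or more, with 1 added to each value, and dashed lines at 1.5-fold. Filled circles are TPM of the gene table, squares TPM of the second quantification and crosses TMM-scaled CPM. Cd14, Peli2, Ly96 and Peli1 lie above the upper line in all 3, Lbp below the lower line in all 3, and Sigirr, Unc93b1, Irak1, Irak4 and Cnpy3 change sign between them.

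Several members carried more TPM on intron-containing transcripts in replicate 2, a pattern examined after it was seen. A transcript annotated retained_intron, with or without reads on it, was listed for 26 detected members. Of these, 13 had a share of TPM over 2 percentage points higher in replicate 2 and 2 had one lower. That is 50% of the members higher and 7.69% lower, and over 6199 detected protein-coding genes of that kind 31.0% were higher and 8.90% lower. The median share of TPM was 1.06% in replicate 1 and 5.36% in replicate 2 over the members, and 0.730% and 2.07% over all such genes. By share of reads, which gives short transcripts less weight, 7 members were higher and 1 lower, or 26.9% and 3.85%, against 19.6% and 4.42% of all such genes. Across the library, retained_intron transcripts took 1.36% of reads in replicate 1 and 1.84% in replicate 2. The part of that difference in the members' values was not tested.

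By share of TPM Ikbke showed the most of it, with 2.29% of TPM in replicate 1 and 16.3% in replicate 2 on retained_intron transcripts. Its protein_coding transcripts alone had 58.9 and 69.8 TPM, closer together than the whole gene. By share of reads Sharpin showed the most, with 3.33% in replicate 1 and 15.7% in replicate 2. Ikbkb with 2.09% and 7.91%, Rbck1 with 1.09% and 6.48% and Irak4 with 0% and 4.09% also differed more than Ikbke with 1.36% and 5.35%. Traf3, with 6.12% and 0% of reads, differed more in the other direction. Tab1 had 0% and 12.2% of TPM, but that share is 8.08 reads on a short transcript, 1.13% of the gene's reads. Also by share of TPM, Irak4 had 0% and 11.2%, Rbck1 2.04% and 10.9%, Sharpin 2.39% and 11.0%, Chuk 2.93% and 10.4% and Tbk1 2.87% and 9.97%. Traf3 went the other way by TPM too, with 21.2% in replicate 1 and 0% in replicate 2, though the second quantification gave 40.7% and 17.6%. Cd14 had 19.8% and 22.4%, on Cd14-202, which took 9.78% and 11.0% of its reads.

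**Figure D4:**
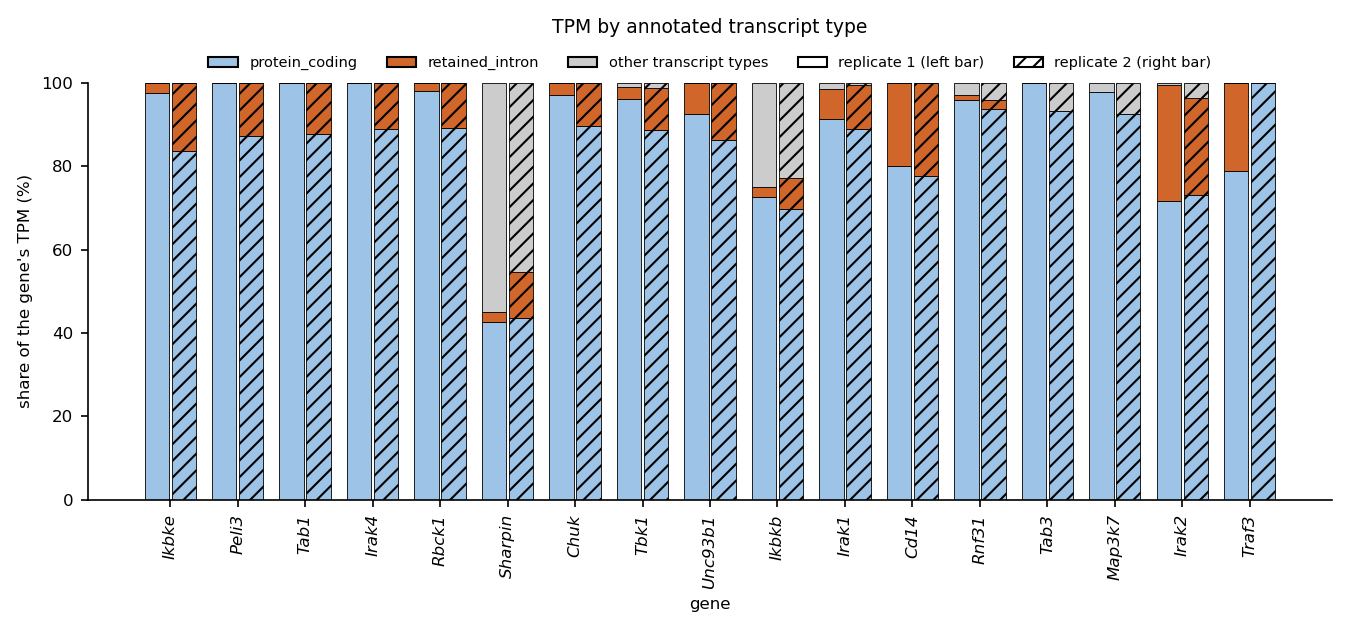
Share of the gene's TPM, in percent, on transcripts annotated protein_coding, retained_intron or another type, for the 17 detected members with under 95% on protein_coding transcripts in a library. Left bars are replicate 1 and hatched right bars replicate 2, ordered by the change in the retained_intron share. Ikbke stands at the left with 2.29% and 16.3%, Traf3 at the right with 21.2% and 0%, and Sharpin and Ikbkb have the largest other shares.

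Exons of 12 members overlap those of a neighbouring gene, in 4 cases on the same strand and in 8 on the opposite strand. Whether the counting used strand is not given in the sources used here. On the same strand, Ticam2 shares up to 838 bases of exon with Tmed7, at 69.0 and 78.3 TPM, and Rnf31 shares 123 with Irf9, at 47.3 and 51.5 TPM. On the opposite strand, Myd88 shares 223 bases with Acaa1a, at 39.9 and 47.1 TPM, and Ikbkg shares 278 with G6pdx, at 164 and 172 TPM. Irak4 shares 170 bases with Twf1, at 67.9 and 73.0 TPM, Irak3 shares 122 with Tmbim4, at 80.4 and 105 TPM, and Tirap shares 39 with Srpr, at 77.7 and 73.1 TPM. The levels of these 7 members carry that uncertainty, and the other 5 members had neighbours at 2.21 TPM or less.

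Genes beside the members in the pathway were mostly present too. Of 12 TLR genes, 10 were detected, with 2 over 1.5-fold higher in replicate 2 and none lower. Tlr13 had the highest mean, with 210 TPM in replicate 1 and 180 TPM in replicate 2, and Tlr11 the lowest, with 0.230 and 0.140 TPM. All 11 ubiquitin partners and brakes were detected, 3 of them higher, including Tnfaip3, which encodes the deubiquitinating protein A20, with 147 and 356 TPM. All 11 kinase scaffolds and MAP kinase genes were detected, 4 of them higher, including Tank, a scaffold for Tbk1, with 22.3 and 47.7 TPM. All 8 NF-kB and IRF transcription factor genes were detected, 2 of them higher, including Rel with 10.2 and 27.6 TPM. No gene of these 4 lists was over 1.5-fold lower. Over all genes at that level 13.1% were higher and 3.97% lower, and 45.5% of protein-coding genes were detected, and with lists this short nothing is read from the counts.

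RefSeq promoters (GRCm38.p6, 250 bases before to 50 after a start) were at hand for 27 members, as 37 windows. On either strand, the NF-kB consensus was found in 4 of these windows, or 10.8%, belonging to Irak1, Map3k7 and Traf3, and in 8.46% of all 32851. The Irak1 windows overlap and hold the same site, which is therefore counted more than once. The interferon-response letters GAAANNGAA were found in 5 windows, or 13.5%, those of Irak3, Ly86, Myd88, Rbck1 and Sarm1, and in 8.56% of all. Both shares lie near those of all promoters, and a match is only a match of letters. Of the members higher in replicate 2, Peli1, Peli2 and Tbk1 had windows with no match, and no window was at hand for Cd14 or Ly96. Nothing about the difference between the libraries is read from this. The Traf3 and Myd88 windows are shown, with the matched letters in capitals, as an example of each.
Traf3, chr12:111166300-111166369, plus strand: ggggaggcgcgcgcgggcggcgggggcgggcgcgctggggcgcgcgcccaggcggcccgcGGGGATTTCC
Myd88, chr9:119340019-119340118, minus strand: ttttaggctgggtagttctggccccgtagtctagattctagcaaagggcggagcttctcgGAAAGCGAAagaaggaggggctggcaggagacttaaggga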

How the data were processed

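Per the deposited text files, the authors used assembly mm10 and annotation M21; which program quantified the reads is not given in the sources used here. Gene and transcript tables by the authors gave, per the file headers, expected counts (estimated reads, not normalized) and TPM. A second deposited transcript table, in another column layout, gave estimated counts and TPM, summed here per gene as an alternative. Deposited FPKM values, percent shares per transcript and interval bounds were not used; shares were computed here from TPM. Entries that name no gene took 0.0891% and 0.0698% of the counts and were left out.

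The 36 members were matched by symbol and joined by gene identifier. Detection meant 1 TPM or more in each of the 2 libraries. Ratios were log2 of (TPM + 1), replicate 2 over replicate 1, called past 1.5-fold at a mean of 1 TPM or more, with no test, since 1 group of 2 libraries allows none. For scaling alternatives, expected counts were rounded and scaled by edgeR 4.0.16 (TMM) and DESeq2 1.42.0 (size factors) in R 4.3.3. The TMM scaling was tested on simulated data, and the size factors were not. Other steps used Python 3.11.15 with pandas 2.3.3, numpy 2.4.6 and scipy 1.17.1. At 37784941 and 51904470 expected counts, 3 counts correspond to 0.0794 and 0.0578 CPM, and intervals cover counting error only.

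Every member is named, with fuller values for those at the ends of a step, past 1.5-fold, below 1 TPM or with an unsettled leading transcript. Of the other pathway lists, the highest or lowest genes and examples chosen after their values were seen are named. A marker gene of the B cell list is not reported here. The members and lists were chosen with earlier results of these data known.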

Additional observations from a re-analysis of the deposited data

How the results depend on the processing

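The number of members detected was 33 and ranged from 31 at a limit of 5 TPM to 35 at 0.5 TPM or at 10 counts, with 34 in either library alone. The median member level was 25.5 TPM, and 28.23 and 24.02 TPM without replicate 1 and without replicate 2, but 21.4 TPM in the second quantification. Members past 1.5-fold between the libraries numbered 6, and 5 to 8 under the other scalings, pseudocounts, filters and the second quantification. The background changed with the setting too. With TMM-scaled counts 4 members were higher and 1 lower, against 8.79% and 4.56% of all genes. In the second quantification 7 were higher and 1 lower, against 20.9% and 2.82%. These counts are therefore not a result about the members. At 2-fold the number was 1, Cd14, fewer by construction of the stricter limit, and 3.68% of all genes were higher and 1.27% lower. Peli2, at 0.997 on the log2 scale with 1 TPM added, lay just inside that limit. It was past it with 0.1 TPM added, at 1.09, and inside it with TMM-scaled CPM, at 0.969. The median protein_coding share over detected members was 96.0% of TPM and 99.1% of expected counts. The TPM median by library was 98.3% in replicate 1 and 96.1% in replicate 2, against 99.0% and 97.7% over 9962 detected protein-coding genes. A higher retained_intron share in replicate 2 was found in 13 members by TPM but 7 by expected counts. Both alternatives in counts were added after the data were seen, and they differ from TPM in that a read on a short transcript weighs less. The second quantification moved the level of 16 of 36 members by more than 1 SD and the ratio of 1, Sigirr, to -0.15. The cause was not tested. No share over all genes is given for these moves, so they are not a result about the members. With 2 libraries an SD is itself uncertain, and no alternative supplies an untreated sample. No paired analysis was possible because there is 1 group.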
